A study of Mus musculus with 4 samples.

Results

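Imprinted genes outside the insulin-like growth factor axis were followed in fibroblasts with added NSD2, a set of 40 mouse genes that is led by Mest. Every probe whose platform symbol is one of these genes was used. This gave 52 probes for 35 genes, out of 25697 probes and 16593 named genes on the array. No probe carried the symbol of Meg3, Rian, H19, Copg2 or Klf14, and these 5 genes were not analysed here. With NSD2, 1 of the 35 genes passed the test across all probes, against 4 of all 16593 (0.0241%). This was Mest, which rose 3.18-fold at its brightest probe. The other Mest probes did not pass, and the call held in 9 of 16 alternative ways of processing the arrays. Of the 34 other genes, 14 were above the array background on no array. Mest was known to differ when the set was drawn up, so its place in it is not independent evidence.

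The cells with NSD2 were p19ARF-/- mouse embryonic fibroblasts stably transduced with the wild-type histone methyltransferase gene, on 2 Illumina bead arrays, NSD2 1 and NSD2 2. They were set against the same kind of cell with a control vector, on 2 arrays, control vector 1 and control vector 2. All 4 arrays thus lack p19ARF, the tumour suppressor that holds back MDM2 and so protects p53. The labels state serum-containing medium and no treatment, and also list a tissue and an age that do not describe embryonic fibroblasts. The sources used here do not name the vector's promoter or say whether the arrays came from separate cultures. The series text speaks of triplicates, while 2 arrays per group were analysed here, so the p-values reflect differences among 4 samples that may be technical repeats. The series asks how NSD2 and its mark on H3K36 relate to an oncogenic expression programme.

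An imprinted gene is transcribed mainly from the allele inherited from a single parent. This is usually because its control region was methylated in the egg or in the sperm and keeps that mark in the embryo. Imprinted genes lie in clusters, and one control region can silence several neighbours, often through a long noncoding RNA or an insulator. Many of them act on fetal growth, placental function and the choice between growth and differentiation in mesenchymal cells. NSD2 places dimethylation on histone H3 at K36, a residue whose methylation is read by de novo DNA methyltransferases. The bead array sums both alleles of a gene, so it shows levels and not which parental copy was read.

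The promoters of the members with the largest differences are shown so that their sequence stands beside the values. CG dinucleotides are where DNA methylation is mostly placed in mammals, and whether these windows hold an imprint mark was not analysed here. The letters are RefSeq sequence of build GRCm38.p6, the 250 bases before a transcript start in the direction of the gene, with every CG in capitals.
Mest, upstream start, chr6:30733256-30733505, plus strand: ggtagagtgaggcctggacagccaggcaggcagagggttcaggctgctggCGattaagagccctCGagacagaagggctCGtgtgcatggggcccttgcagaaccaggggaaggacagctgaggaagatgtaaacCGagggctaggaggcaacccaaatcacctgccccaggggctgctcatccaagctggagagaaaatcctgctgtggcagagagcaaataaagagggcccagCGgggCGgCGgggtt
Mest, downstream start, chr6:30737800-30738049, plus strand: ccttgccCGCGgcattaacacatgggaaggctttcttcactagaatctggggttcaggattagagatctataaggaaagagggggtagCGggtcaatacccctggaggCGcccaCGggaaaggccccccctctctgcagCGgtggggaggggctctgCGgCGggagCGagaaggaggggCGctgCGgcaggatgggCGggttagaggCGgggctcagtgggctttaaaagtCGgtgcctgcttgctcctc
Grb10, chr11:12037421-12037670, minus strand: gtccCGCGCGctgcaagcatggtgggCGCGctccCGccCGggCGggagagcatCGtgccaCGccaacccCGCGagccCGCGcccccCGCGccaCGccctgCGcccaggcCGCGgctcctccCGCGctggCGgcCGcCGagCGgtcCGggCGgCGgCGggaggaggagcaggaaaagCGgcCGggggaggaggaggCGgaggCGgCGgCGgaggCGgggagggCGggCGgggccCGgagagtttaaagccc
Ddc, chr11:11890409-11890658, minus strand: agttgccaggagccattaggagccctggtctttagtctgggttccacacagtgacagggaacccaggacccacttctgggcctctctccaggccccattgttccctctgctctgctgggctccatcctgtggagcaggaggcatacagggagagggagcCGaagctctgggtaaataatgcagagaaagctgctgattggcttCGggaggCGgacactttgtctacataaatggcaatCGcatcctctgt
The motif searched was CG, which reads the same on both strands. The window at the downstream Mest start held 14 CG, and 29.4% of the 32851 windows of the same length held at least as many. The upstream Mest start had 7 (46.3% of windows), the Grb10 window 40 (1.31%) and the Ddc window 4 (62.2%). For Grb10 and Ddc the window with the most CG is printed. Its share is still taken over all windows and not over each gene's richest window, so it is not like for like. Of the 40 members, 32 were in the table, with a median of 13 CG in each gene's richest window, against 6 over all 27025 genes. The count describes the sequence alone.

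Mest encodes a protein of the alpha/beta hydrolase fold, is expressed from the paternal allele in mesodermal tissue of the embryo and marks fat cell expansion in mice. Its brightest probe (ILMN_2846904) had a linear bead signal of 934 and 1148 on NSD2 1 and 2, against 328 and 424 on control vector 1 and 2. Background lay at 178 and 182 on the NSD2 arrays and at 185 and 219 on the control arrays, where a probe above the upper 5% point of the array's mirrored noise distribution counts as above background. All 4 arrays were above it, and both NSD2 arrays were higher than either control array, as for 15.4% of all genes above background on 1 array or more. After normalization the log2 intensity was 9.91 ± 0.24 with NSD2 and 8.25 ± 0.05 with control vector (mean ± SD, n = 2 each). The log2 fold change was 1.67 ± 0.21 (SE), with a 95% interval of 1.22 to 2.11 and an adjusted p of 0.0054 from limma over all probes. Over all genes 4 of 16593 passed in either direction, 0.0241%, and all 4 were higher with NSD2. Among the genes above background on 1 array or more the share was 0.0441%.

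The other Mest probes were dimmer. ILMN_2642417 had signals of 318 and 468 on the NSD2 arrays, against 158 and 244 on the control arrays, where only control vector 2 was above background. Its groups did not overlap, the log2 fold change was 1.43 ± 0.23, and the limma adjusted p of 0.054 missed the threshold of 0.05. ILMN_2642418 had 154 and 227 on the NSD2 arrays, against 156 and 193 on the control arrays. It was above background on NSD2 2 alone, and its groups overlapped. Where a group was below background on all its arrays a fold is only a bound, and none could be set for this probe.

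**Figure D1:**
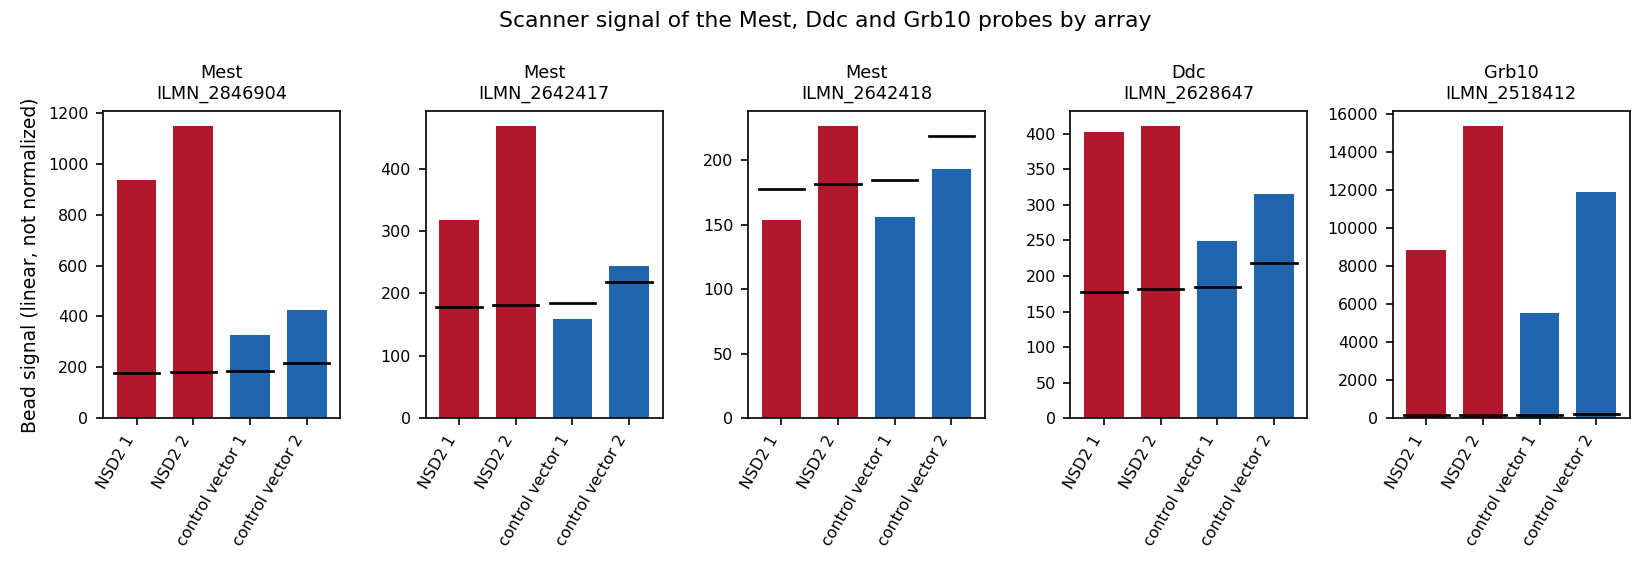
Linear, non-normalized bead signal (y axis, each panel on its own scale from 0) of the 3 Mest probes and of the Ddc and Grb10 probes on NSD2 1, NSD2 2 (red), control vector 1 and control vector 2 (blue). Black lines mark the background threshold of each array. The brightest Mest probe had 934 and 1148 on the NSD2 arrays, against 328 and 424 on the control arrays, while the probe ILMN_2642418 was above its threshold on NSD2 2 alone.

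The direction of Mest was the same in all 16 alternative ways of processing the arrays, with log2 fold changes of 1.48 to 1.94. Its call held in 9 of the 16, and the limma adjusted p ranged from 2.27e-09 to 0.9996. Not all of the 16 could change the direction. The background filters, robust trended moderation, the replicate block and probes chosen by variance reuse the same normalized values. Their log2 fold change is thus fixed at 1.67. Choosing by variance took the same Mest probe and repeats the reported fit, although it is counted among the 9. Leaving out NSD2 1 gave 1.52 ± 0.26. That fit did not call Mest, and neither did several fits that kept all 4 arrays. With 2 arrays per group an exact two-sided permutation test of one gene cannot go below 0.333. The call rests on the spread that limma shares between probes.

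**Figure D2:**
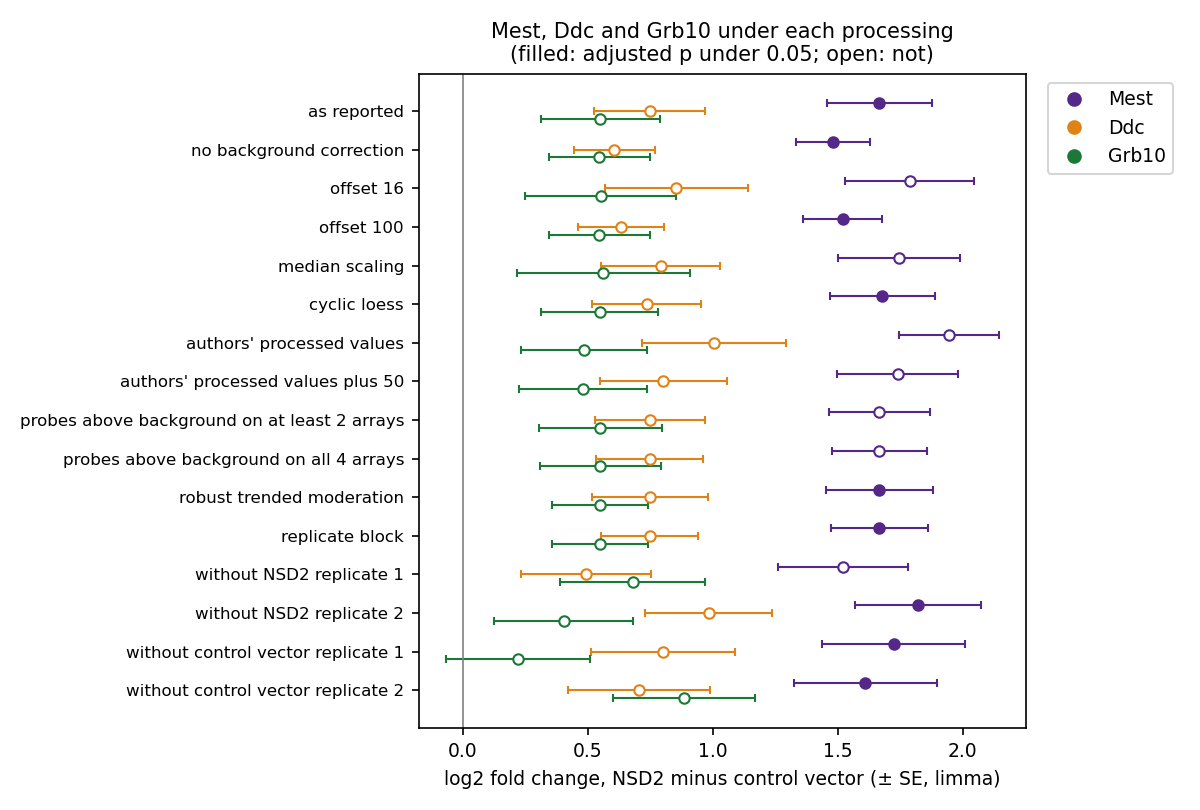
Log2 fold change of NSD2 minus control vector (x axis, bars are the SE from limma) for Mest, Ddc and Grb10 under each way of processing the arrays (rows; choosing probes by variance gave the same Mest value and is not drawn). Filled points have an adjusted p under 0.05. Mest stayed between 1.48 and 1.94 and was called in 9 of 16 alternatives, and neither Ddc nor Grb10 was called in any.

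The genes next to Mest were looked up after its value was seen. Of the 4 protein-coding genes on either side in RefSeq order, Copg2 and Klf14 had no named probe, and Cpa1, Cpa4, Cpa5 and Tsga13 were above background on no array. Cep41, the direct neighbour, which encodes a centrosomal protein, had a log2 intensity of 9.15 with NSD2 and 9.10 with control vector, a difference of 0.04 ± 0.21. Mkln1, the gene of the scaffold protein muskelin, stood at 11.66 with NSD2 and 11.71 with control vector, a difference of -0.05 ± 0.20. Each of these 2 differences was smaller than its standard error. The microRNA gene Mir335 lies within the Mest transcription unit, and microRNAs were not analysed here.

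Grb10 and Ddc are neighbours in one imprinted domain, and their probes had the next largest differences among members above background. Neither passed the test across all probes (limma adjusted p = 0.9996 for both). Ddc encodes aromatic L-amino acid decarboxylase, which makes dopamine and serotonin, and a transcript of it in the mouse heart is imprinted. Its log2 intensity was 8.72 and 8.19 on the NSD2 arrays, against 7.74 and 7.67 on the control arrays. The groups did not overlap, and NSD2 1 was the highest array. The log2 fold change was 0.75 ± 0.22 (1.68-fold, 95% interval 0.28 to 1.22). The linear signal of the Ddc probe was at most 2.26 times the background threshold, and with an offset of 16 in place of 50 in the background correction the log2 fold change was 0.85. Without NSD2 1 it was 0.49.

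Grb10 encodes an adaptor protein that binds activated insulin and IGF1 receptors and restrains growth. It is read from the maternal allele in most mouse tissues and from the paternal one in neurons. Its log2 intensity was 13.37 and 13.66 on the NSD2 arrays, against 12.64 and 13.30 on the control arrays. The groups did not overlap, but control vector 2 lay close to NSD2 1. The log2 fold change was 0.55 ± 0.24 (95% interval 0.04 to 1.05), and without control vector 1 it was 0.22. Its linear signal followed the replicate number as well, with 8815 and 15351 on NSD2 1 and 2, against 5552 and 11881 on control vector 1 and 2. Of the genes flanking the pair, Fignl1, an AAA ATPase gene next to Ddc, differed by 0.08 ± 0.21. Cobl, an actin nucleator gene next to Grb10 that is itself imprinted in mouse, was above background on 1 NSD2 array and on neither control array. Its log2 intensity was 7.34 and 6.89 on the NSD2 arrays, against 6.50 and 6.89 on the control arrays. The bound on its fold was 1.09, which takes no account of the spread between arrays. Cobl did not pass the test (limma adjusted p = 0.9996).

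**Figure D3:**
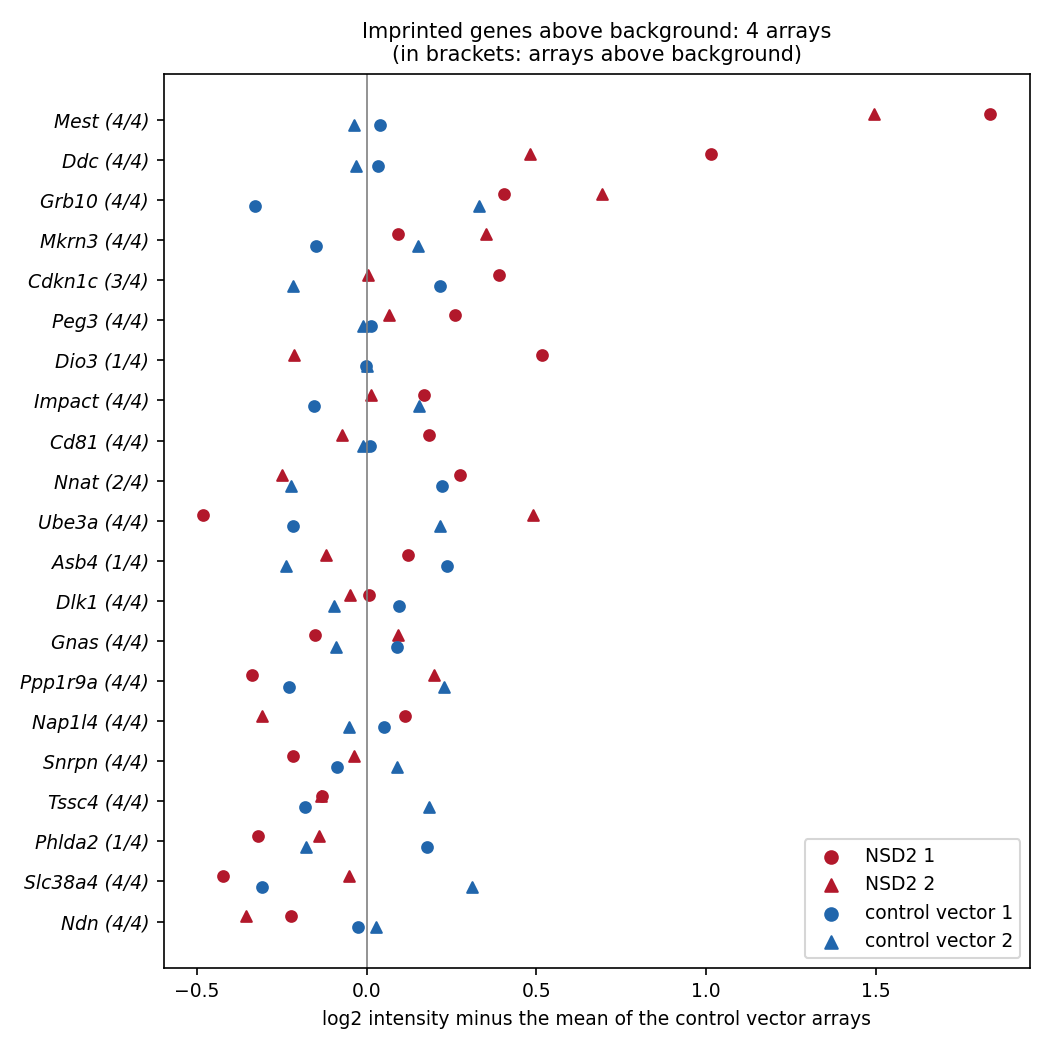
Log2 intensity of the 21 member genes above background on 1 array or more, each array minus the mean of the 2 control vector arrays (x axis), for NSD2 1 and 2 (red) and control vector 1 and 2 (blue), with circles for replicate 1 and triangles for replicate 2. Mest, Ddc, Grb10 and Peg3 have both red points right of both blue ones, and Ndn has both left of them. In the other 16 genes the groups overlap. Over all genes above background on 1 array or more, the groups did not overlap in 30.9% (15.4% higher, 15.5% lower).

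In the domain of Peg10, the retrotransposon-derived gene needed for the placenta, 2 of 5 members were above background. Peg10 itself and Sgce, the epsilon-sarcoglycan gene that shares its promoter region, were above it on 0 arrays, as was Calcr, the calcitonin receptor gene. Ppp1r9a, which encodes the actin-binding scaffold neurabin, had a log2 intensity of 8.28 and 8.81 on the NSD2 arrays, against 8.39 and 8.84 on the control arrays. These values pair by replicate number and overlap between the groups, with a difference of -0.07 ± 0.24. Asb4, a SOCS box protein gene, was above background on control vector 1 alone. Its log2 intensity was 6.95 and 6.71 on the NSD2 arrays, against 7.07 and 6.59 on the control arrays, and no fold is given.

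Peg3 encodes a zinc finger protein that acts in maternal care and in stem cells of adult tissue, and it shares a bidirectional promoter with Usp29. Its log2 intensity was 8.07 and 7.88 on the NSD2 arrays, against 7.82 and 7.80 on the control arrays. Both NSD2 values were higher, but the difference of 0.16 ± 0.20 was below its standard error. Usp29, a deubiquitinase gene, and Zim1, a maternally expressed zinc finger gene, were above background on 0 arrays.

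In the Prader-Willi/Angelman domain 4 of 6 members were above background, and none passed the test. Ndn, which encodes the growth suppressor necdin, had a log2 intensity of 10.61 and 10.48 on the NSD2 arrays, against 10.81 and 10.86 on the control arrays. It was the only member above background whose NSD2 arrays were both lower than both control arrays, with a difference of -0.29 ± 0.20 (95% interval -0.72 to 0.14). Snrpn, the gene of the splicing protein SmN, had 10.47 and 10.65 on the NSD2 arrays, against 10.60 and 10.78 on the control arrays, a difference of -0.13 ± 0.21. Its groups overlapped. Mkrn3, a ubiquitin ligase gene that delays puberty, differed by 0.22 ± 0.21 and lay at most at 1.48 times the background threshold.

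Ube3a, the ubiquitin ligase gene whose paternal copy is silent in neurons, was the most variable member within a group. Its brightest probe had a log2 intensity of 7.50 and 8.47 on the NSD2 arrays, against 7.77 and 8.20 on the control arrays. The mean difference was 0.00 ± 0.28, and both control arrays lay between the NSD2 arrays. Another Ube3a probe was above background on both NSD2 arrays and on neither control array, at 0.89 to 1.06 times the threshold. The bound on its fold was 1.05, which takes no account of the spread between arrays. This probe did not pass the test (limma adjusted p = 0.9996). The other 2 Ube3a probes, Magel2, a MAGE family gene, and Peg12, a relative of the Frat genes of Wnt signalling, were above background on 0 arrays.

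Of the 9 measured members at the H19/Igf2 and Kcnq1 domains, 5 were above background, and none passed the test. Cdkn1c encodes the cyclin-dependent kinase inhibitor p57, a brake on fetal growth. Its signal was 221 and 215 on the NSD2 arrays, against 216 and 217 on the control arrays, next to the thresholds and above them on 3 arrays. The difference was 0.20 ± 0.23. Phlda2, which limits placental growth, was above background on control vector 1 alone. Its log2 intensity was 6.54 and 6.72 on the NSD2 arrays, against 7.04 and 6.69 on the control arrays, and no fold is given.

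The edges of the Kcnq1 domain held bright probes. Cd81, a tetraspanin gene, had a log2 intensity of 14.35 and 14.10 on the NSD2 arrays, against 14.18 and 14.16 on the control arrays. Its groups overlapped, and the difference of 0.06 ± 0.21 had a 95% interval of -0.38 to 0.49. Nap1l4, a histone chaperone gene, had 12.22 and 11.80 on the NSD2 arrays, against 12.16 and 12.06 on the control arrays, a difference of -0.10 ± 0.21. Its groups overlapped as well. The probes of Tssc4 differed by -0.13 ± 0.21 and 0.07 ± 0.20, opposite in sign and both under 2 times the background threshold. Ascl2, a transcription factor gene of the trophoblast, the transporter gene Slc22a18, the tetraspanin gene Tspan32 and the oxysterol-binding protein gene Osbpl5 were above background on 0 arrays.

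Dlk1 encodes a transmembrane relative of the Notch ligands that holds preadipocytes back from becoming fat cells. Its signal was 202 and 231 on the NSD2 arrays, against 221 and 251 on the control arrays, between 1.13 and 1.27 times the background threshold. The log2 difference was -0.02 ± 0.20 (95% interval -0.45 to 0.41), and the groups overlapped. Dio3, the gene of the deiodinase that inactivates thyroid hormone, was above background on NSD2 1 alone. Its log2 intensity was 7.16 and 6.43 on the NSD2 arrays, against 6.64 and 6.64 on the control arrays, and no fold is given. Rtl1, a retrotransposon-derived gene of the placental vessels, was above background on 0 arrays. The maternally expressed noncoding RNAs of this domain, Meg3 and Rian, were not analysed here, so only its paternally expressed side was seen.

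Gnas encodes the stimulatory G protein alpha subunit and further products from upstream promoters with their own imprints. Its brightest probe had a log2 intensity of 11.51 and 11.75 on the NSD2 arrays, against 11.75 and 11.57 on the control arrays, a difference of -0.03 ± 0.21, and another bright probe differed by -0.09 ± 0.21. A further Gnas probe, assigned to the transcript NM_201617, had signals of 170 and 174 on the NSD2 arrays, against 143 and 148 on the control arrays. The groups did not overlap, but it was above background on 0 arrays, at 0.68 to 0.96 times the threshold, so neither a difference nor a fold is given for it (limma adjusted p = 0.9996). Nnat, the neuronatin gene of developing brain and fat, was above background on NSD2 1 and control vector 1 and differed by 0.01 ± 0.23.

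Of the 4 members at loci of their own, 2 were above background on all arrays. Slc38a4, an amino acid transporter gene of liver and placenta, had a log2 intensity of 8.49 and 8.86 on the NSD2 arrays, against 8.60 and 9.22 on the control arrays, a difference of -0.24 ± 0.24. The spread followed the replicate number, and the groups overlapped. Impact, which encodes an inhibitor of the amino acid sensor kinase GCN2, had 11.16 and 11.01 on the NSD2 arrays, against 10.84 and 11.15 on the control arrays, a difference of 0.09 ± 0.21. Plagl1, a zinc finger transcription factor gene that regulates other imprinted genes in mouse, had 3 probes, none of which was above background on any array. Nap1l5, a relative of Nap1l4, was above background on 0 arrays.

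**Figure D4:**
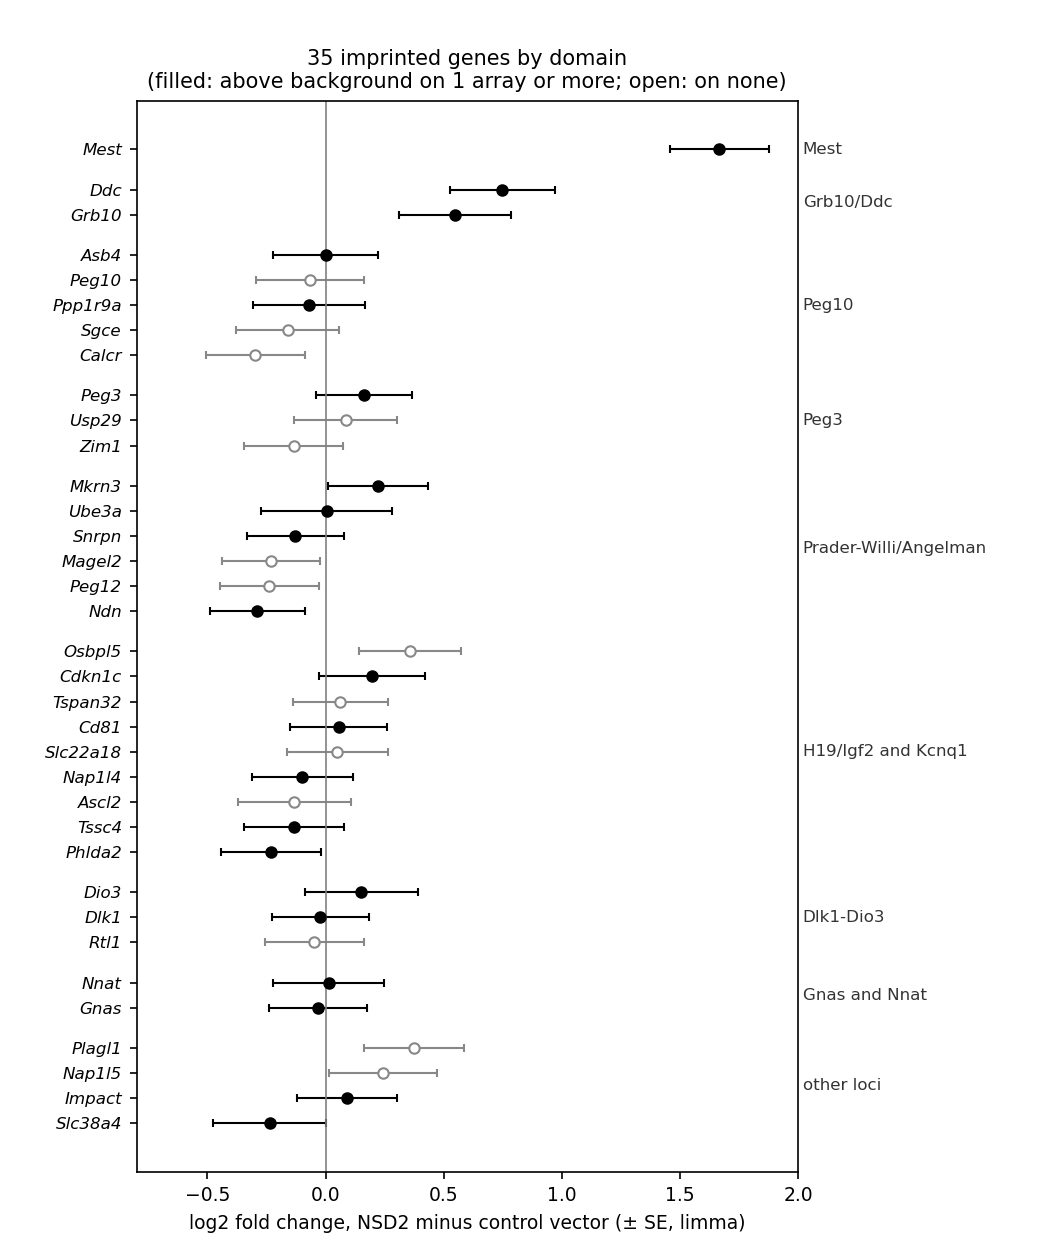
Log2 fold change of NSD2 minus control vector (x axis, bars are the SE from limma) for the 35 measured imprinted genes, each by its brightest probe, grouped by domain. Filled points are the 21 genes above background on 1 array or more and open points the 14 above it on none. Mest at 1.67 stands apart, Ddc (0.75) and Grb10 (0.55) follow, and the other genes lie between -0.30 and 0.37. Points of genes with a group below background on all its arrays are differences in measured intensity, not folds.

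Across the set, 16 genes were above background on all 4 arrays, 5 on some of them (Cdkn1c, Nnat, Asb4, Phlda2 and Dio3) and 14 on none. Asb4, Phlda2 and Dio3 passed on 1 array each, at no more than 1.05 times the threshold. By its definition 5% of the noise on an array passes, so these genes may not be expressed. Of the 16, Peg3, Mkrn3, Tssc4 and Dlk1 lay under 2 times the threshold on every array. Grb10, Cd81, Nap1l4, Gnas, Impact, Ndn and Snrpn lay over 5 times it on every array. The 25 probes above background on no array had 0.62 to 0.97 times the threshold, and differences between the groups there are not changes in expression.

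Among the 21 genes above background on 1 array or more, 12 had higher and 9 lower means with NSD2, and over all such genes 49.6% had higher means. Their median difference in log2 intensity was 0.00, as it was over all 9074 such genes, with quartiles of -0.10 and 0.16 for the members and -0.14 and 0.14 for all. The groups did not overlap in 5 of the 21 (4 higher, 1 lower), against 30.9% of all such genes, 15.4% higher and 15.5% lower. An unadjusted limma p under 0.05 was found for 3 of the 21, Mest, Ddc and Grb10, against 4.29% of all such genes (3.91% of all 16593). These 3 are also the members whose difference reached 0.5 in size, against 3.25%. Mest was known to differ when the set was drawn up, and Ddc and Grb10 are neighbours in the same domain. The 3 are thus not independent cases, and an excess in the set was not tested. Apart from Mest, 18 of 20 had a 95% interval within 1 log2 unit of zero, the exceptions being Ddc and Grb10.

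By the allele that is usually read, 10 paternally expressed genes were above background, with a median difference of 0.05, and 8 maternally expressed ones, with a median of -0.03. In the first class 6 had higher and 4 lower means with NSD2, and in the second 4 had higher and 4 lower. The 3 others, Grb10, Ddc and Gnas, were set apart because their allele differs by isoform or tissue. The classes are general and do not describe these cells. Ube3a was counted as maternal although its silent paternal copy is described for neurons. Which allele was read in the fibroblasts was not measured. Mest was the only gene called in either class, and a difference between the classes was not tested.

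A further list of 39 imprinted genes, among them those of the IGF axis, had 28 measured and 18 above background, of which 0 passed the test in either direction over all probes (limma), 10 had higher and 8 lower means and 2 had an unadjusted p under 0.05, against 4.29% of all genes above background. These were Igf2, the fetal growth factor gene (0.89 ± 0.21), and Dcn, the decorin gene (0.51 ± 0.20). The next largest on all 4 arrays were Blcap (0.28 ± 0.22), a neighbour of Nnat, and in the other direction Qpct (-0.32 ± 0.20), Trappc9 (-0.20 ± 0.21) and Pon3 (-0.18 ± 0.23). Igf2r, the maternally expressed receptor that clears IGF2, differed by -0.17 ± 0.21.

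Of 24 genes that set, protect or read imprints, 20 were measured and 14 above background, and 0 passed in either direction (limma), with 1 of the 14 at an unadjusted p under 0.05, against the same 4.29%. That was Nsd1, which like Nsd2 dimethylates H3K36 (-0.45 ± 0.21). Dnmt1 and Uhrf1, which copy DNA methylation at replication, differed by 0.09 ± 0.23 and 0.08 ± 0.20, and Trim28, the corepressor that guards imprints, by -0.01 ± 0.22. Smchd1, a silencing factor of imprinted clusters, differed by 0.26 ± 0.23 and Ehmt2, an H3K9 methyltransferase gene, by 0.18 ± 0.20. On the other side were Eed (-0.36 ± 0.25), of Polycomb complex 2, and Mbd3 (-0.29 ± 0.22), of the NuRD complex.

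No named probe matched the transduced gene, Nsd2 (Whsc1), so its level was not checked. Cdkn2a, the locus of p19ARF, had 1 of 2 probes above background on all arrays (0.17 ± 0.21), which may lie outside the deleted part and checks nothing. The fibroblast label was met by 8 of 9 measured markers above background on 1 array or more, and 7 on all 4. The summed signal of the 9 was 32947 and 44994 on the NSD2 arrays, against 34575 and 44262 on the control arrays. Among the 8, Pdgfrb was above background on NSD2 2 alone, and Lum was not above it. Of these 8, 5 had higher means with NSD2, among them Pdgfra (0.49 ± 0.25), Col1a1 (0.33 ± 0.23) and Col3a1 (0.05 ± 0.22), and 3 had lower ones, Thy1 (-0.45 ± 0.20), S100a4 (-0.21 ± 0.20) and Vim (-0.16 ± 0.20). Of the blood, trophoblast and endothelial markers 2 of 7, 1 of 5 and 1 of 5 were above background on 1 array or more and none on all 4. The summed blood marker signal was 1035 and 1103 on the NSD2 arrays, against 1110 and 1311 on the control arrays. The trophoblast sum was 759 and 775 on the NSD2 arrays, against 747 and 885 on the control arrays, and the endothelial sum 803 and 711 on the NSD2 arrays, against 776 and 920 on the control arrays. Of the pluripotent, neural, epithelial, muscle and adipocyte markers 3 of 5, 2 of 5, 3 of 4, 2 of 5 and 2 of 4 were above background on 1 array or more. On all 4 arrays these were Nanog, Nes, Krt8 with Krt18, desmin and Pparg. The epithelial markers were bright, with Krt8 at 7.76 to 13.2 times the background threshold and Krt18 at 6.01 to 9.69 times. They differed by -0.01 ± 0.21 and 0.11 ± 0.20. In no marker list did a gene pass the test over all probes (limma). Desmin (Des), a muscle marker, differed by 0.86 ± 0.23 and was above background on all 4 arrays. Of the 4 other muscle markers Myog was above background on control vector 1 alone and Ckm, Actn2 and Myod1 on 0 arrays, and the 4 had lower mean intensities with NSD2. The trophoblast marker Elf5 was above background on NSD2 1 alone, and no fold is given for it. The part of other cell types in the Mest difference was not tested, and in bulk RNA fewer cells of a type and less RNA per cell cannot be told apart. Brightness followed the replicate number, with an upper quartile of the signal of 345 and 491 on NSD2 1 and 2, against 357 and 490 on control vector 1 and 2, and 42.3% to 45.9% of probes were above background on an array.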

How the data were processed

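Total RNA was labelled and hybridised to Illumina mouse bead arrays, 2 per group. Per the file headers, the first deposited table holds the average bead signal per probe, a linear intensity that is neither normalized nor background-subtracted, with no detection p-values. The second holds the authors' processed intensity on a linear scale, made by a method not given in the sources used here. Each of its columns ranks the probes as the signal of the same array does (Spearman correlation 1), 225 to 1470 values per array are negative, and its medians are 42.3 to 48.7, so scale and direction are settled and the normalization is not. It served as an alternative.

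Signals were corrected with normexp (offset 50), log2 transformed and quantile normalized over all 25697 probes. Groups were compared with lmFit and eBayes of limma 3.58.1 (R 4.3.3), two-sided, with Benjamini-Hochberg adjustment over all probes and a threshold of 0.05. The offset understates differences of dim probes. A gene is given by its probe with the highest mean. The procedure was tested on simulated data with independent errors for each array. That setting leaves out the shared deviation of same-numbered arrays seen in these data.

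Background per array is the upper 5% point of the low side of the log2 signals mirrored about their mode. Where a group was below it on all arrays, the fold is a bound. For the dim group it takes, array by array, the measured value or the dimmest one above background, whichever is larger.

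Symbols came from the platform annotation: 23978 probes had 1 symbol, 0 several, and 1719 were unnamed here. All members above background on 1 array or more were named with values. From the other lists Igf2, Igf2r and genes past the threshold were named. So were up to 3 per direction with the largest difference above background on all 4 arrays, Dnmt1 among them. Uhrf1 and Trim28 were added after their values were seen. The members and lists were chosen with earlier results of these data known.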

Additional observations from a re-analysis of the deposited data

How the results depend on the processing

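The number of arrays limits every value, and dim probes carry little information. Mest kept its direction throughout, but its call (adjusted p in brackets, all limma) was lost with an offset of 16 (1.79, 0.9996), median scaling (1.74, 0.234), the authors' processed values floored at 16 (1.94, 0.715) or, chosen after seeing the data, plus 50 (1.74, 0.110), and over probes above background on at least 2 arrays (1.67, 0.060) or on all 4 (1.67, 0.099). Its other probes gave 1.43 (0.054) and 0.34 (0.9996). The count of member genes called, 1, was 0 under each of those settings. The count of all genes called, 4, became 0 with an offset of 16 (677 genes at an unadjusted p under 0.05), median scaling (210), the authors' values (1012 floored, 618 plus 50) and probes above background on all 4 arrays (236), 1 on at least 2 arrays, 10 with robust trended moderation and 37 with the replicate number as a block. Fewer probes enter the 2 filtered fits. The cause of the changed calls was not tested for any setting.

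Leaving out 1 array gave 1.52 to 1.82 for Mest, 0 to 1 member genes called (0 without NSD2 1), 3 to 12 genes called (10 without control vector 1, 12 without control vector 2) and member medians of -0.036 to 0.11. A group left with 1 array was taken to have the spread of the other. Same-numbered arrays deviated together (correlation 0.52 over 9779 probes), but 2 pairs do not show that the numbers pair the samples. With the replicate block Mest was called (adjusted p = 2.27e-09) and Ddc (0.086) and Grb10 (0.351) were not.

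Peg3, Mkrn3, Snrpn, Phlda2, Ddc and Grb10 kept their sign without 1 array but moved by over 1.5 times. The ranges were 0.067 to 0.25 for Peg3, 0.075 to 0.37 for Mkrn3, -0.22 to -0.036 for Snrpn and -0.40 to -0.054 for Phlda2. They were 0.49 to 0.98 for Ddc and 0.22 to 0.88 for Grb10. Ndn also kept its sign and moved less, with -0.35 to -0.23. Values of Asb4, Phlda2, Dio3 and the dimmest Mest probe are differences in measured intensity, not folds. Uncalled members near zero turned sign. Asb4 was -0.0028 without background correction, -0.0026 with an offset of 100, -0.00071 with median scaling and -0.0019 with the authors' values plus 50. Cd81 was -0.0265 with the authors' values floored and -0.0264 plus 50. Dlk1 was 0.0121, Gnas 0.0194 and Ppp1r9a 0.00295 with median scaling, Nnat -0.00819 with cyclic loess, and Ube3a -0.00686 with an offset of 16 and -0.00353 with the authors' values floored. Leaving out 1 array, the ranges that crossed zero were -0.23 to 0.24 for Asb4, -0.075 to 0.20 for Cd81, -0.019 to 0.44 for Cdkn1c, -0.22 to 0.48 for Dio3, -0.11 to 0.077 for Dlk1, -0.16 to 0.092 for Gnas, -0.060 to 0.24 for Impact, -0.31 to 0.11 for Nap1l4, -0.27 to 0.25 for Nnat, -0.33 to 0.20 for Ppp1r9a, -0.55 to 0.071 for Slc38a4, -0.32 to 0.052 for Tssc4 and -0.46 to 0.51 for Ube3a.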
